A study of Mus musculus with 11 samples.

Results

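The 3357 regions described here carried a huntingtin (HTT) ChIP-seq peak in every wild-type (WT) library of mouse striatum and in no library of Q111/+ striatum. They were chosen by the peak calls themselves. Overlapping peaks of the 7 deposited lists on chromosomes 1 to 19 were merged, a single shared base pair being enough, into 1057836 regions, of which these 3357 (0.317%) met the rule. Because calls in WT and Q111/+ lists chose the regions, their presence in WT and absence in Q111/+ are no finding, and all values are given as descriptions with no test.

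The ChIP libraries came from the whole striatum of male mice aged 4 months on a B6 background, bred as littermates. WT mice were Htt+/+ (3 libraries), and Q111/+ mice carried a knock-in HttQ111 allele beside a wild-type allele (4 libraries). Tissue was fixed with formaldehyde, chromatin was cut with micrococcal nuclease and sonicated, and the same lot of an anti-HTT antibody was used for both genotypes. The labels do not say whether that antibody tells the mutant from the wild-type protein, nor that each library came from a separate animal. The peak lists do not show the Htt genotype, so they give no check of the labels. In whole tissue, binding in fewer cells and weaker binding per cell cannot be told apart.

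Huntingtin is a large scaffold protein expressed throughout the brain, mostly in the cytoplasm but also in the nucleus. Expansion of its glutamine tract causes Huntington's disease, in which the medium spiny neurons of the striatum are lost early. It is not a classical sequence-specific DNA-binding factor, and its contacts with chromatin are thought to be made largely through other proteins. A ChIP-seq peak is a stretch where sequenced fragments pile up above the local background, its summit is the base of highest pile-up, and peaks built from few fragments have poorly fixed edges and summits.

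The lists differed in length before any region was chosen. On the autosomes the WT lists held 488325, 241707 and 133901 peaks in replicates 1, 2 and 3, and the Q111/+ lists held 109042, 87096, 102503 and 107430 in replicates 1 to 4. Every WT list was longer than every Q111/+ list, which makes presence in WT and absence in Q111/+ easier to meet than the reverse. Sequencing depth is unknown. The names of the lists carry 2 prefixes of unstated meaning, the first on Q111/+ replicates 1 and 2 and WT replicate 1 and the second on the other 4 libraries.

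The WT trio was set beside the other 34 ways to pick 3 of the 7 lists, each holding the regions called in those 3 lists alone. Together the 35 trios held 19990 regions, of which the WT trio had 16.8%. The other trios held 73 to 1808 regions each, with a median of 341. The next largest were WT replicates 1 and 2 with Q111/+ replicate 4 (1808 regions) and with Q111/+ replicate 1 (1632 regions). Trios with more WT lists tended to hold more regions, and trios of Q111/+ lists alone lay in the low part of the range, at 73 to 117. The opposite pattern, a peak in all 4 Q111/+ lists and in no WT list, was met by 20 regions (0.00189% of all).

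**Figure D1:**
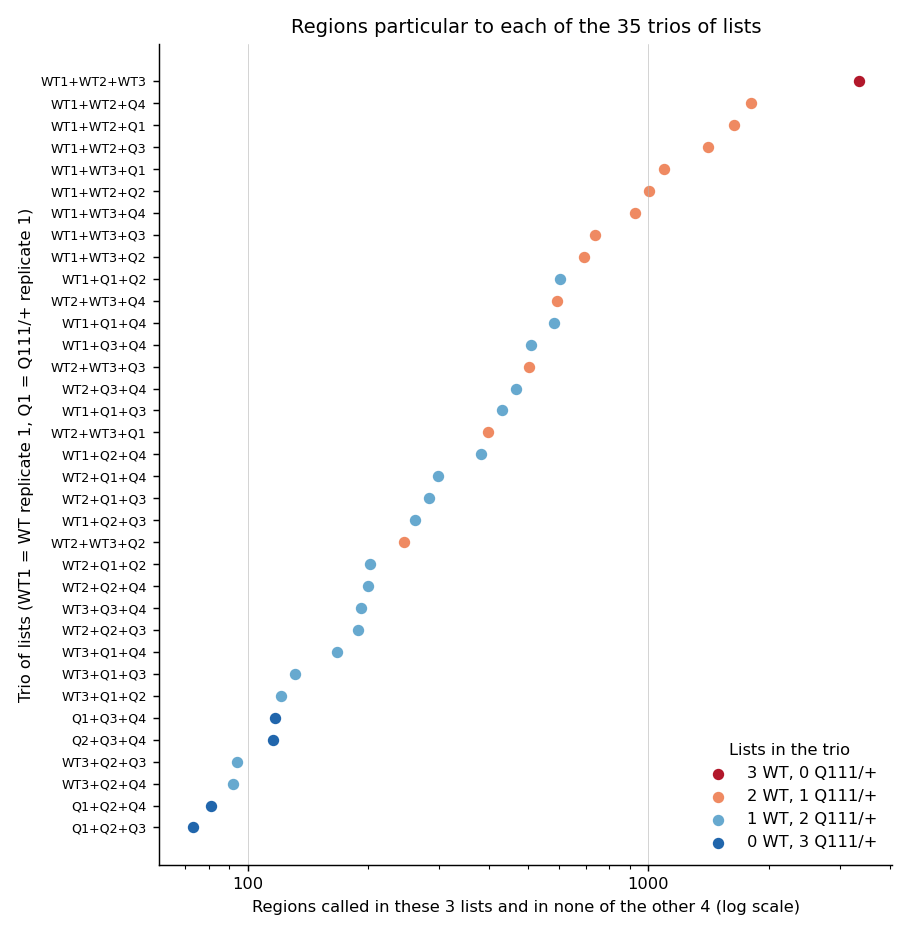
Regions called in 3 lists and in none of the other 4, for each of the 35 trios (log scale, coloured by the number of WT lists in the trio). The WT trio stands at 3357 and the next highest trio at 1808, and the trios with no WT list lie at 73 to 117.

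Setting each count against the length of the list that completes the trio allows for part of that difference in length. It makes no allowance for the lists that must lack a peak. With a Q111/+ list in place of a WT list, an additional WT list is among those, and WT lists are longer. By construction this favours the WT list with every pair below. When WT replicates 1 and 2 were the pair, WT replicate 3 added 25.1 regions per 1000 of its peaks, and the Q111/+ lists added 15.0, 11.5, 13.8 and 16.8. When WT replicates 1 and 3 were the pair, WT replicate 2 added 13.9 per 1000 and the Q111/+ lists 10.0, 7.93, 7.19 and 8.62. When WT replicates 2 and 3 were the pair, WT replicate 1 added 6.87 per 1000 and the Q111/+ lists 3.65, 2.81, 4.91 and 5.51. The remaining WT list stood above all 4 Q111/+ lists with each pair, by the smallest margin in the last. A WT list was often the highest with other pairs too. Of the 6 pairs of Q111/+ lists, a WT list added the most per 1000 peaks in 4, and every WT list stood above both Q111/+ lists in 2. Of the 12 mixed pairs, the corresponding counts were 9 and 5. In the pair of WT replicates 2 and 3, both lists carry the second name prefix. There the Q111/+ lists with that prefix (4.91 and 5.51) stood above those with the first (3.65 and 2.81). WT replicate 1, which carries the first prefix, was higher still. With all lists cut to the 87096 strongest peaks, the WT trio fell to 409 regions, and the highest count with a Q111/+ list in place of a WT list was 328.

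**Figure D2:**
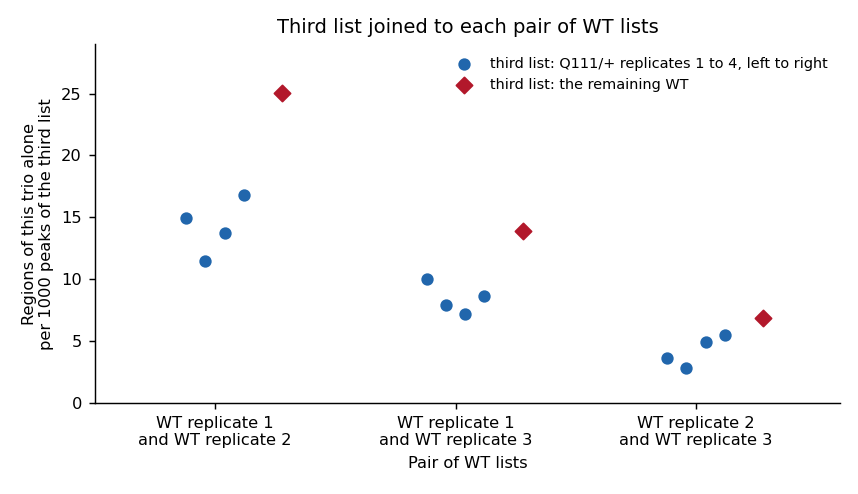
Regions of a trio alone per 1000 peaks of the list that completes it, for each pair of WT lists. That list is the remaining WT list (diamond) or 1 of the 4 Q111/+ lists (circles). The circles also require no peak in the remaining, longer WT list. The diamond is the highest point over each pair, at 25.1, 13.9 and 6.87.

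The peaks in WT-only regions were mostly above the middle of the list of WT replicate 1 and close to the middle of the other WT lists. Strength is given as the percentile rank of the authors' −log10 p among the autosomal peaks of the same list. The median rank was 73.7 in WT replicate 1, 46.5 in replicate 2 and 47.9 in replicate 3. In replicate 1 this was above the median of 56.6 for that library's peaks in other trios. In replicates 2 and 3 the medians equalled those of other trios and of peaks that overlapped no other list. Many peaks tie at 1 rank, so these medians hide differences. At least 6 fragments were found at 27.9%, 23.6% and 49.0% of the peaks in replicates 1, 2 and 3. In other trios it was 26.1%, 21.3% and 49.7%, and for peaks that overlapped no other list 19.4%, 12.3% and 39.5%. Medians of the authors' fold over local background were 3.74, 2.99 and 3.12. A −log10 q of at least 2 was reached in all 3 WT lists at 2246 regions (66.9%). The deposited p and q match fragment numbers multiplied by a scale of 4.20 to 6.16 per library. This makes both more extreme than the fragment numbers alone would give, so they serve here for ranking only.

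The fragment number at each summit was recovered from the authors' fold and −log10 p. The median was 5 fragments in each WT library, with ranges of 3 to 78, 3 to 49 and 4 to 70. In its weakest WT library, a WT-only region rested on 3 fragments in 795 cases (23.7%), on 4 in 1669 (49.7%) and on 5 in 675 (20.1%). At least 6 fragments in every WT library were found at 218 regions (6.49%) and at least 8 at 53 (1.58%). The same shares over the pooled regions of the other trios were 7.48% and 1.43%. By these shares, the fragment numbers behind WT-only regions were close to those behind the pooled regions of other trios. By single trio, the share with at least 6 fragments was higher than 6.49% in 26 of the other 34 (median 9.41%), and the share with at least 8 was higher than 1.58% in 17 and lower in 17.

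**Figure D3:**
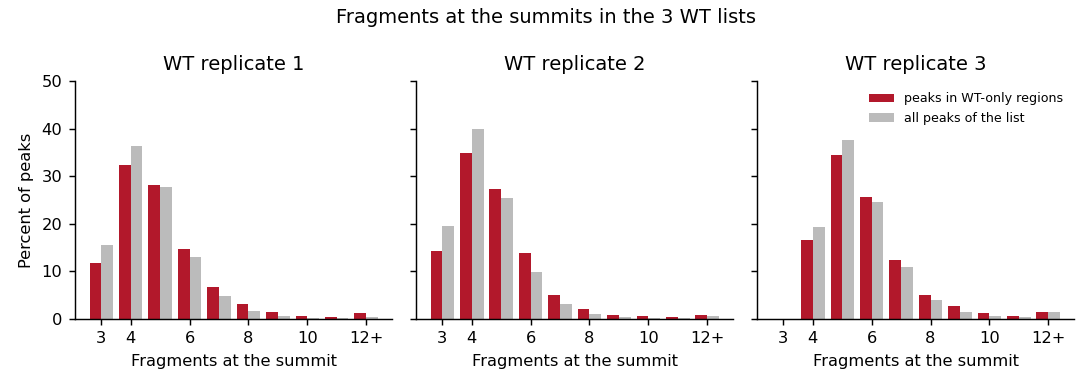
Percent of peaks by the number of fragments at the summit in the 3 WT libraries, for the peaks in WT-only regions (red) and all autosomal peaks of the same list (grey), with 12 or more pooled. In each library the red bars are lower than the grey ones at the smallest fragment number and higher from 6 fragments to 10.

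Against the other regions found in all 3 WT lists, the WT-only regions were the weak end. A peak in every WT list was found at 8737 regions, of which 3357 had none in Q111/+, 1924 had a peak in 1 Q111/+ list, 1410 in 2, 1052 in 3 and 994 in all 4. The median of the lowest WT rank rose over these 5 classes, from 30.9 through 44.7, 62.3 and 73.7 to 94.6. The WT peaks themselves were wider in each class than in the one before, with medians in WT replicate 1 of 269, 348, 469, 513.5 and 614.5 bp. Region width, from 457 bp with none to 1320.5 bp with all 4, also includes the Q111/+ peaks and so widens by construction. Read the other way, among regions whose lowest WT rank was under 25, 58.4% of 2523 were WT-only and 2.02% were called in all 7 lists. Among those at rank 95 or over, 3.56% of 900 were WT-only and 52.6% were called in all 7. Both quantities share the WT peaks that chose the regions, and wider regions have more room to meet a Q111/+ peak.

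WT-only regions were mostly a simple overlap of single peaks, and their median width was above that of most other trios. Exactly 3 peaks, 1 per WT list, made up 3207 of the 3357, and none held more than 6. Median width was 457 bp (quartiles 350 and 606 bp, range 143 to 2314 bp). Medians of the other trios ran from 377 to 465 bp, and 4 of the 34 were above 457. The WT peaks inside them were a little wider than usual for their lists, with medians of 269, 231 and 201 bp in replicates 1, 2 and 3 against list medians of 210, 193 and 173 bp. Peaks of the same libraries in other trios lay between, at 251, 217 and 190 bp. Peaks that overlapped no other list were the narrowest, at 204, 186 and 165 bp.

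The summits of the 3 WT libraries lay well apart in most of these regions. Summit spread is the distance between the outermost of the 3 WT summits, taking the strongest peak of each list. Its median was 201 bp (quartiles 114 and 306 bp, range 0 to 2000 bp), which is of the order of the width of a single peak. The medians of the other trios ran from 166 to 218 bp, 9 of them higher and 25 lower. Summits of all 3 WT libraries lay within 50 bp of each other at 274 regions (8.16%), against 5.21% to 14.4% in the other trios, and within 10 bp at 26. Median distances between pairs of WT libraries were 114 bp for replicates 1 and 2, 115 bp for 1 and 3, and 121 bp for 2 and 3, so no library stood apart. At 964 regions (28.7%) no base lay in the strongest peaks of all 3 libraries, and the region was held together by a chain of overlaps. The strongest peaks of the other 2393 did share a stretch. Median summit spread was 320 bp in the former and 156 bp in the latter.

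The share of regions with close WT summits was highest in the strongest class. By the lowest rank over the WT lists, median spread was 196 bp under rank 25 (1474 regions), 207 bp from 25 to 50 (1341), 203 bp from 50 to 75 (321), 219.5 bp from 75 to 90 (130) and 197 bp from 90 to 95 (59). It was 49 bp at rank 95 and over, where 17 of 32 regions (53.1%) had summits within 50 bp. Most of the 274 regions with such summits were weak all the same, 115 of them under rank 25 and 92 from 25 to 50, where they made up 7.80% and 6.86%. The pooled other trios showed the same step, with medians of 198, 202, 198.5, 192.5 and 153 bp and then 30 bp, and 61.8% of 55 regions within 50 bp in the last class. From rank 25 upward the WT-only medians were the higher ones.

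**Figure D4:**
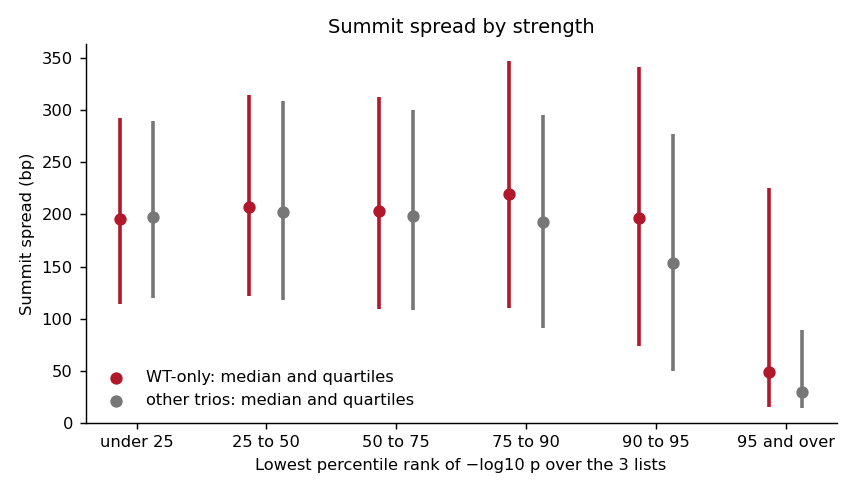
Summit spread in bp (point, median; line, quartiles) by strength (percentile rank of −log10 p, lowest of the 3 lists of a trio), for WT-only regions (red) and the pooled other trios (grey). Medians stay near 200 bp in both up to rank 75 and reach 49 and 30 bp at rank 95 and over.

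A rank of 90 or more in all 3 WT lists was reached by 91 WT-only regions, spread over all 19 autosomes with 14 on chromosome 7. Lowest ranks from 90 to 95 were found at 1.76% of WT-only regions, against 0.541% of the pooled other trios. For ranks of 95 and over the shares were 0.953% and 0.331%. A rank stands for different fragment numbers in different lists, so these shares are not on the same footing. The 91 regions were divided by the local background that the peak caller set around them. Since they were picked by −log10 p, a region with raised background needs more fragments to be among them, so the fragment numbers below are partly set by the choice. At 54 the background was at the lowest value of the list in all 3 libraries, as it was at 2100 of all WT-only regions (62.6%). These were broad, with a median width of 790.5 bp and medians of 7, 6.5 and 7.5 fragments at the summit, and their summits were 225.5 bp apart at the median. At 26 the background was above the lowest value in all 3 libraries, with medians of 3.38, 3.31 and 4.16 fragments. These were narrow, with a median width of 295.5 bp, medians of 17, 15 and 18.5 fragments, and a summit spread of 32.5 bp. Summits within 50 bp were found at 18 of the 26 and at 8 of the 54. The remaining 11 were mixed between libraries, with a median width of 859 bp and a spread of 344 bp. Both contrasts were weaker over all WT-only regions. The 327 with raised background in every WT library had a median width of 425 bp and a spread of 150 bp, against 453 bp and 196.5 bp for the 2100 at the lowest background.

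**Figure D5:**
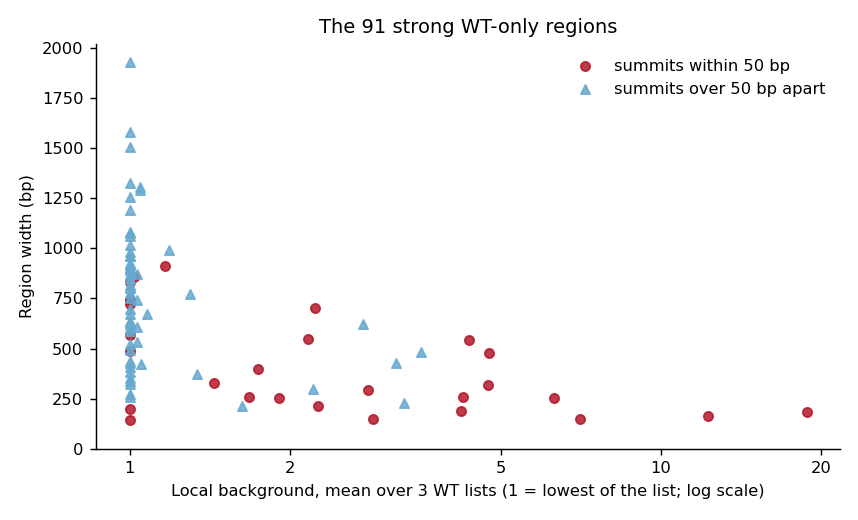
The 91 WT-only regions of rank 90 or more in all 3 WT lists, by local background as a multiple of the lowest of each list, averaged over the 3 libraries (log scale), and by region width in bp. Regions at the lowest background reach 1930 bp and mostly have summits over 50 bp apart, and those with a mean background over 1.5 times the lowest are at most 704 bp wide, most with summits within 50 bp.

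The 8 regions with the highest lowest rank were narrow, from 149 to 480 bp, and all had raised background and exactly 3 peaks. Positions are in mm9, 1-based, and nearby genes were not placed, because no annotation of that build was used here. The first, chr17:71313026-71313190, had 55, 49 and 59 fragments in WT replicates 1, 2 and 3 over backgrounds of 15.3, 14.4 and 16.7. Its summits lay within 8 bp, 134 bp were shared by all 3 peaks, and the nearest Q111/+ peak was 5373 bp away. The second, chr13:9833563-9833814, had 33, 32 and 35 fragments over backgrounds of 6.33, 8.89 and 8.58. Its summits lay within 14 bp and its 3 peaks shared 243 of its 252 bp, the nearest Q111/+ peak being 3865 bp away. The third, chr12:100883732-100883880, had 36, 38 and 36 fragments over 7.63, 8.70 and 10.5, with summits within 2 bp. A Q111/+ peak lay 164 bp from it. In these 3 regions the libraries were alike in fragments, with no WT library high or low by more than 10 fragments.

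The fourth, chr18:56463031-56463216, had 78, 49 and 70 fragments, the most of any WT-only region in WT replicates 1 and 3, and summits within 1 bp. Its background was the highest of the 8 too, at 19.8, 23.1 and 28.8 fragments, and its fold was 3.91, 2.11 and 2.42 (mean 2.81 ± 0.963, SD, n = 3). WT replicate 2 was the lowest and WT replicate 1 the highest in both fragments and fold. By fold its lowest rank over the 3 lists was 1.43. Its fold was below the list median in WT replicates 2 and 3 (2.99 and 3.12) and above it in replicate 1 (3.19). In replicates 2 and 3 the strong rank thus came from the number of fragments rather than from the ratio. No Q111/+ peak lay nearer than 10825 bp. The fifth, chr6:81818315-81818794, had 19, 20 and 29 fragments over 5.20, 5.29 and 7.62. Its summits lay within 37 bp, and a Q111/+ peak was 427 bp away.

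The sixth, chr5:143651989-143652139, had 18, 16 and 23 fragments over 4.87, 2.65 and 3.10, and its fold of 3.61, 5.71 and 6.97 (mean 5.43 ± 1.70, SD, n = 3) was lowest in WT replicate 1. The seventh, chr4:116193859-116194070, had 13, 12 and 19 fragments over 2.44, 2.65 and 3.57, with an even fold of 5.06, 4.30 and 5.05 (mean 4.80 ± 0.438, SD, n = 3). It was the only one of the 8 that also had a lowest rank over 90 when peaks were ranked by fold. The eighth, chr5:33080253-33080442, had 17, 27 and 37 fragments over 4.87, 5.29 and 5.72. WT replicate 1 was low there, and a Q111/+ peak lay 131 bp away. Summits lay within 19, 10 and 22 bp in these 3 regions.

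Of the 4 tightest summits among the 91, the regions on chromosomes 18 and 12 above came next after the first. The tightest was chr5:95148782-95149270, whose 3 WT summits fell on the same base, with 6, 9 and 10 fragments at the lowest background of each list. It lay in a dense window (described below), and the nearest Q111/+ peak was 828 bp away. The fourth was chr7:126875233-126875485, with 13, 10 and 14 fragments, summits within 4 bp and a Q111/+ peak 718 bp away. The tightest of the 4 thus had fewer fragments and a lower background than the other 3.

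The 3 widest regions were made of more than 3 peaks and differed strongly between libraries. At chr12:114020277-114022590 (2314 bp, 4 peaks) WT replicate 1 had 9 fragments and replicates 2 and 3 had 5 each. Its outermost summits lay 2000 bp apart, the largest spread of all, and no base was shared. At chr4:10981174-10983244 (2071 bp, 5 peaks) the libraries had 7, 4 and 11 fragments, replicate 2 being low. At chr16:75305960-75307911 (1952 bp, 4 peaks) they had 10, 5 and 7, and the peak of WT replicate 3 alone spanned the whole region. In none of the 3 did every WT library reach rank 90.

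The nearest Q111/+ peak lay at a median of 1693 bp (quartiles 621 and 3754 bp, range 0 to 36815 bp), with 305 regions (9.09%) within 200 bp, 695 (20.7%) within 500 bp, 1176 (35.0%) within 1000 bp and 3236 (96.4%) within 10 kb. Up to 1000 bp these shares were higher than those of regions called in fewer WT lists, and at 10 kb they were close. Among 625987 regions called in a single WT list and no Q111/+ list, 6.17% had a Q111/+ peak within 200 bp and 15.3% within 500 bp. Within 1000 bp it was 28.3% and within 10 kb 95.3%. Among 53799 called in 2 WT lists alone, the shares were 6.83%, 16.5%, 30.1% and 95.9%. Median region width rose with the shares, from 193 bp through 322 bp to 457 bp, and its part in the difference was not tested. By library, 6.49%, 3.99%, 7.57% and 7.92% of the regions had a peak of Q111/+ replicates 1 to 4 within 500 bp, an order that does not follow list length, since replicate 1 had the longest list. Over the 6 classes of rank, from weak to strong, the median distance was 1774.5, 1791, 1393, 1100.5, 1469 and 1219.5 bp, lower in the stronger classes with no steady fall. In the 10 kb on either side, beyond the first 500 bp, lists of equal length held 0.959, 1.20 and 1.18 WT peaks and 0.938, 0.856, 1.17 and 1.12 Q111/+ peaks per region. Over all 7 libraries the 2 genotypes overlapped in that flanking density. Within the first name prefix WT replicate 1 (0.959) was above Q111/+ replicates 1 and 2 (0.938 and 0.856), and within the second WT replicates 2 and 3 (1.20 and 1.18) were above Q111/+ replicates 3 and 4 (1.17 and 1.12), by small margins. Around regions of the other trios each of the 7 lists was denser, at 1.05 to 1.31 for WT and 1.01 to 1.28 for Q111/+.

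At the edge of the rule, 16 WT-only regions had a Q111/+ peak less than 10 bp away. Just outside it, 1924 regions had all 3 WT peaks and a single Q111/+ list, and in 12 of them that peak overlapped by less than 10 bp. The single list was Q111/+ replicate 1 in 555, replicate 2 in 305, replicate 3 in 436 and replicate 4 in 628. The Q111/+ peaks there had medians of 5, 5, 5 and 6 fragments and of rank 56.4, 62.2, 46.6 and 68.8 within their lists, at or above the middle of the list in 3 of the 4 libraries. On the WT side, 602 WT-only regions included a peak with a −log10 p below 3.5, near the limit of 3 at which the lists start.

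WT-only regions were found on every autosome at 9.76 to 20.1 per 10 Mb. Chromosome 7 held the most, 300 regions (8.94%, against 8.08% of the other trios and 6.74% of all merged regions). Chromosome 16 had the fewest per length, 93 regions (2.77%, against 3.57% of the other trios). Chromosomes 12 and 13, with 202 and 208 regions, held 6.02% and 6.20% of the WT-only regions and 4.98% and 5.24% of those of the other trios. Chromosome 2 held 5.39% against 6.17%. For chromosome 7 the exact 95% binomial interval of 7.99% to 9.95%, which covers counting error only, included the share in the other trios. For chromosomes 12, 13 and 16 the intervals (5.24% to 6.88%, 5.40% to 7.07% and 2.24% to 3.38%) did not, and for the remaining autosomes they did.

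Most of the regions stood alone. The median gap between neighbours was 426774 bp, and 204 regions (6.08%) lay within 10 kb of another WT-only region. The other trios reached 0% to 6.42%. Fewer regions leave fewer such pairs, but the shares did not simply follow the counts. The highest was WT replicate 2 with Q111/+ replicates 3 and 4 (467 regions). WT replicates 2 and 3 with Q111/+ replicate 4 (592) reached 4.90%, and with replicate 3 (503) 4.77%. WT replicates 1 and 2 with Q111/+ replicate 4 (1808) reached 3.32%, and with replicate 1 (1632) 2.33%. The first 3 of these trios hold second-prefix lists only. So does WT replicate 3 with Q111/+ replicates 3 and 4, at 1.04%. At 10 kb 3153 WT-only regions were single, 90 chains held 2, 5 held 3, and 1 chain each held 4 and 5. The chain of 5 ran over 28824 bp at chr17:13240701-13269524, with regions 376 to 721 bp wide, summit spreads of 16 to 258 bp, and a lowest fragment number of 3 to 7. The chain of 4 ran over 17933 bp at chr4:146191749-146209681, with spreads of 140 to 473 bp and Q111/+ peaks 8 to 412 bp away. After them 5 chains of 3 were tied, on chromosomes 4, 5 (3 of them) and 7. Every one of these 7 chains had Q111/+ peaks within 1460 bp of each of its regions, and 5 of the 7 lay in dense windows.

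Dense windows are the 23 windows of 1 Mb with at least 20 regions called in 4 or more of the equal-length lists, a definition made earlier with these data in view. They held 172 WT-only regions (5.12%), against 6.52% of the pooled other trios and 0.995% to 19.7% of the single ones. Regions called in 3 lists do not count toward a dense window, so regions shared with Q111/+ lists, at 15.0% with a peak in 1 such list and 36.1% with all 4, are no measure to hold this share against. Within the WT-only regions it was 13.8% among the 327 WT-only regions with raised background in every WT library and 4.00% among the 2100 with none raised.

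The fullest windows of WT-only regions were all dense. The window chr5:95000001-96000000 held 23, chr5:94000001-95000000 held 16 and chr4:145000001-146000000 held 15. The same windows held 144, 127 and 116 regions of other trios and 249, 171 and 266 regions called in 4 or more lists, so WT-only regions were a small part of what was called there. Within 1000 bp of a Q111/+ peak lay 69.6%, 100% and 93.3% of the WT-only regions of these windows, against 35.0% over all WT-only regions. Their median widths were 489, 468 and 514 bp and their median summit spreads 156, 248.5 and 210 bp. Over the autosomes WT-only regions fell in 1678 of 2417 windows, and 760 windows held exactly 1. The 73 windows with 5 or more held 496 regions (14.8%). Below the 3 fullest, dense and other windows were mixed. The windows chr17:13000001-14000000 (14 regions), chr4:146000001-147000000 (13) and chr4:147000001-148000000 (10) were dense. The windows chr7:21000001-22000000 (13), chr4:60000001-61000000, chr7:23000001-24000000 and chr12:19000001-20000000 (10 each) were not.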

How the data were processed

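HTT ChIP-seq peak lists of 3 WT and 4 Q111/+ striatal libraries were used, 1 list per library. The 4 no-antibody input samples were not used here. The submitters' processing notes mention Bowtie2 2.2.5, MACS2 2.1 and mm9 with no role. By their names, the deposited lists hold MACS calls from paired reads at p 0.001. The labels do not state the control used for calling. The authors' fold column is each peak's ratio to local background, and the authors' −log10 columns hold its p-value and q-value. These values were compared within a list only.

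Peaks on the 19 autosomes were merged where they overlapped by at least 1 bp, and the strongest peak per library gave the summit. Fragment numbers were found as the whole number, times a scale per library, that gives both the deposited fold and −log10 p under the MACS formulas (tolerance 0.01 in −log10 p). At least 99.9% of peaks matched, and at most 5.44% did with a wrong scale. In simulated lists with 500 planted WT-only regions, 100% of those that no random Q111/+ peak touched were found. Such regions meet the rule by construction, so this checks only that the merging ran as intended. The fragment number was right in 100% of simulated peaks, but the lowest number in the real lists, 3, was not simulated. Nor were fragment numbers and backgrounds as high as those at chr17:71313026-71313190 and chr18:56463031-56463216. The simulation thus gives no check of values that high. Background was called lowest within 2% of a list's lowest value.

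Regions were named by rule: the 8 with the highest lowest rank, the 4 tightest summits at rank 90 or over, the 3 widest, and the 3 fullest chains (steps of up to 10 kb) and 1 Mb windows. The members, lists and rules were chosen with earlier results of these data known. Alternatives were other limits, list lengths, overlap rules and left-out libraries. Gene annotation and sequence were planned and not used, because the reference tables are of another build and coordinates were not converted. The work was done in Python 3.11.15 (pandas 2.3.3, numpy 2.4.6, scipy 1.17.1), with plots by matplotlib 3.10.9.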

Additional observations from a re-analysis of the deposited data

Results flagged for a closer look

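At the regions with all 3 WT peaks and a single Q111/+ list, the median fragment number of the Q111/+ peak was 6 in Q111/+ replicate 4 and 5 in each of the other 3 Q111/+ libraries. It was marked as far from the others of its group, but those were tied, so any other value would have been marked too. It was 1 of 8 measures examined in this way, and chance marks about 1 group in 20. The step is a single fragment.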

How the results depend on the processing

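The number of WT-only regions (3357) stayed within 1.5 times with an overlap of 50 bp, with no Q111/+ peak allowed within 500 bp, with a base shared by all 3 WT peaks, and with any 1 Q111/+ library left out. It was 2077 for peaks of −log10 p 5 or more, 409 in lists of equal length and 11682 within the second name prefix alone, where 2 WT lists have to agree against 2 Q111/+ lists. In that prefix the reverse, both Q111/+ and neither WT list, held 3220, and the 4 mixed pairs of a WT and a Q111/+ list alone held 7355, 8014, 3199 and 3845. Added after seeing the data, at least 6 fragments in each WT library left 218, and WT lists cut to the length of the longest Q111/+ list left 573. Leaving out a library gave 3653 to 32209 regions. The 3 highest counts were without WT replicates 1 (10074), 2 (21014) and 3 (32209), where 2 lists instead of 3 have to agree.

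Under the same settings in turn (−log10 p of 5, equal length, second prefix, 6 fragments, shorter WT lists), median width was 500, 592, 314, 550.5 and 543 bp, and the share within 10 kb of another was 4.72%, 2.20%, 16.0%, 7.34% and 1.92%. Median summit spread was 211, 213, 91 and 164.5 bp under the first 4, the prefix value resting on 2 summits. The share in dense windows was 7.27%, 12.5%, 19.3% and 9.95% with −log10 p of 5, equal length, 6 fragments and shorter WT lists. With an overlap of 50 bp, width was 444 bp and spread 185 bp. With a shared base they were 412 and 156 bp, and 5.18% lay within 10 kb of another. With no Q111/+ peak within 500 bp that share was 3.46%, and 2.33% lay in dense windows. Leaving out a library gave widths of 306 to 474 bp, spreads of 89 to 204 bp, 7.14% to 28.7% within 10 kb of another and 2.01% to 7.19% in dense windows. Ranked by fold, 0 of the 8 regions of highest rank were kept. The cause of these shifts was not tested. Depth is unknown, and intervals cover counting error only.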
